A study of Mus musculus with 8 samples.

Results

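The genes around Ctcf were followed on the mouse array through 661 probes, of 55663 non-control probes used, whose position on chromosome 8 starts between 93200000 and 123200000 of the build mm9. This is the stretch of 15 Mb on either side of Ctcf. The single Ctcf probe, at 108206632 to 108206691, and the probes of Ccl17, Cx3cl1, Ccl22, Zfhx3, Pdf and Psmb10 were left out, 7 probes in all. Of the members 370 belonged to 304 named genes, 236 to predicted long intergenic noncoding RNA (lincRNA) regions and 55 to other or unknown transcripts. A probe was tested if at least 4 of the 8 arrays had it well above background, which 569 members met: 320 probes of 271 named genes, 203 lincRNA probes and 46 others. The other 92 members (50, 33 and 9 of these kinds) were too dim and were not tested.

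The arrays measured RNA bound to tagged ribosomes in the hippocampus of naive C57BL/6 mice at least 3 months old, 1 array per mouse. The control group (WT, 4 mice) was labelled Ctcf wild type, Camk2a-Cre positive and Ribotag positive. The conditional knockout group (CKO, 4 mice) was labelled Ctcf loxP/loxP with the same Cre and Ribotag. The design text of the series instead gives Ctcf loxP/loxP for control mice; groups here follow the labels of the samples. There were 3 males and 1 female per group. In the Ribotag method Cre switches on a haemagglutinin-tagged form of the ribosomal protein Rpl22, so that ribosomes of the Cre-expressing cells are pulled down with their transcripts. Camk2a drives Cre in forebrain excitatory neurons, and cells outside the Cre pattern keep Ctcf. The labels do not give the source strain of the loxP allele, so sequence differences near Ctcf between the groups were not tested.

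CTCF binds DNA through its zinc fingers and, with cohesin, anchors chromatin loops that bring enhancers and promoters together or keep them apart. The surroundings of a floxed gene are of interest because alleles linked to it are inherited with it. The stretch around mouse Ctcf is gene-rich close to Ctcf, with transcription, trafficking and enzyme genes in close order. Farther out it holds gene-poor blocks with cadherin genes, and clusters of carboxylesterases, metallothioneins and chemokines.

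The sequences below are probes on which the results turn. The first pair carries the name of the long noncoding RNA 4922502B01Rik, and its members differed in opposite directions. The probes lie on opposite strands, at chr8:111774833-111774892 (reverse) and chr8:111709475-111709534 (forward) of mm9. Sequences are given 5′ to 3′ as in the scanner files, and no part is capitalised.
4922502B01Rik first probe: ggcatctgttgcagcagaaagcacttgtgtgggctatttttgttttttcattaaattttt
4922502B01Rik second probe: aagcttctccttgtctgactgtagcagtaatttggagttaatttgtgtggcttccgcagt

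The next 2 probes are from the lincRNA region nearest to Ctcf, at chr8:108153738-108153797 (reverse) and chr8:108158284-108158343 (forward). They had the smallest p among tested members within 0.25 Mb of the Ctcf probe that were lower in CKO.
lincRNA reverse-strand probe: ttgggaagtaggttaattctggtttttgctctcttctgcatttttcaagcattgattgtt
lincRNA forward-strand probe: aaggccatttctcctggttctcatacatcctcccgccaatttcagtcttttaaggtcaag

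Values below are normalized log2 signals, that is log2 of the processed signal minus the 75th percentile of each array, and a difference is CKO minus WT on that scale. Ctcf itself was at -1.11, -1.75, -1.47 and -1.15 in WT 1 to 4 and at -2.56, -2.42, -1.97 and -2.02 in CKO 1 to 4. Every CKO mouse was below every WT mouse, and the difference was -0.87 (SE 0.22, limma adjusted p = 0.738). Where the loxP sites lie is not given in the labels, so it was not tested whether this probe reads a deleted exon. The arrays lay on 3 slides, and between 72.2% and 81.5% of probes per array were well above background. The excitatory neuron markers (6 of 6 measured) had a median signal brighter than 97.3% of tested probes, the astrocyte markers (4 of 5 measured) brighter than 87.3%, the oligodendrocyte markers (5 of 5) brighter than 74.5% and the microglia markers (5 of 5) brighter than 47.9%. The dentate gyrus markers (4 of 4) had a median level between 0.65 and 1.31 in WT mice and between 0.18 and 0.52 in CKO mice, and their part in the results below was not tested. In these bulk immunoprecipitates fewer cells of a type and less RNA per cell cannot be told apart.

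The comparison of genotypes asked whether genes near Ctcf differed more between CKO and WT mice than probes elsewhere. None of the 569 tested members passed an adjusted p of 0.05 in limma, and 0% of all 44316 tested probes did. At an unadjusted limma p under 0.05 there were 29 members, 5.10%, against 5.33% of all tested probes. Of these 14 were higher in CKO, 2.46% against 2.12% of all probes, and 15 were lower, 2.64% against 3.21%. This split depended on the fit. Higher in CKO were 19 of 29 with quantile normalization, 19 of 31 with normexp as well and 24 of 33 in the deposited values. With slide as a block it was 10 of 28, and in males alone 8 of 28. All probes called made up 4.26%, 4.74%, 4.48%, 5.74% and 4.27% in these fits, not split by direction. The groups did not overlap for 19 members, 3.34% against 3.28% of all probes. Of these 10 were higher in CKO, 1.76% against 1.71%, and 9 were lower, 1.58% against 1.57%. An absolute log2 difference of at least 0.5 was found for 84 members, 14.8% against 15.5%. The median difference was -0.097, against -0.096 over all probes and -0.12 over the rest of chromosome 8. By these counts the members lay near the background. Below an unadjusted limma p of 0.001 there were 2 members, 0.351%, against 0.135% of all probes. They were the first probe of 4922502B01Rik and Ccdc113, the second of which was already known from earlier results when the stretch was chosen.

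The count of 29 moved when single mice were left out, and the share over all probes moved with it. It was 16 without WT 1, 18 without WT 2, 17 without WT 3 and 68 without WT 4, against 3.01%, 3.38%, 2.92% and 12.3% of all probes. It was 19 without CKO 1, 55 without CKO 2, 15 without CKO 3 and 26 without CKO 4, against 4.61%, 8.66%, 2.99% and 5.80%. Within slide 2, which held 2 mice of each group, 8 members were below 0.05, against 2.75% of all probes. Within slide 3, with WT 4 alone against 2 CKO mice, 29 were, against 3.59% of all probes. The lone WT mouse of slide 3 gives no spread of its own, so those p-values take it from the slide and genotype cells with 2 mice. No left-out array brought a member past the adjusted threshold.

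**Figure D1:**
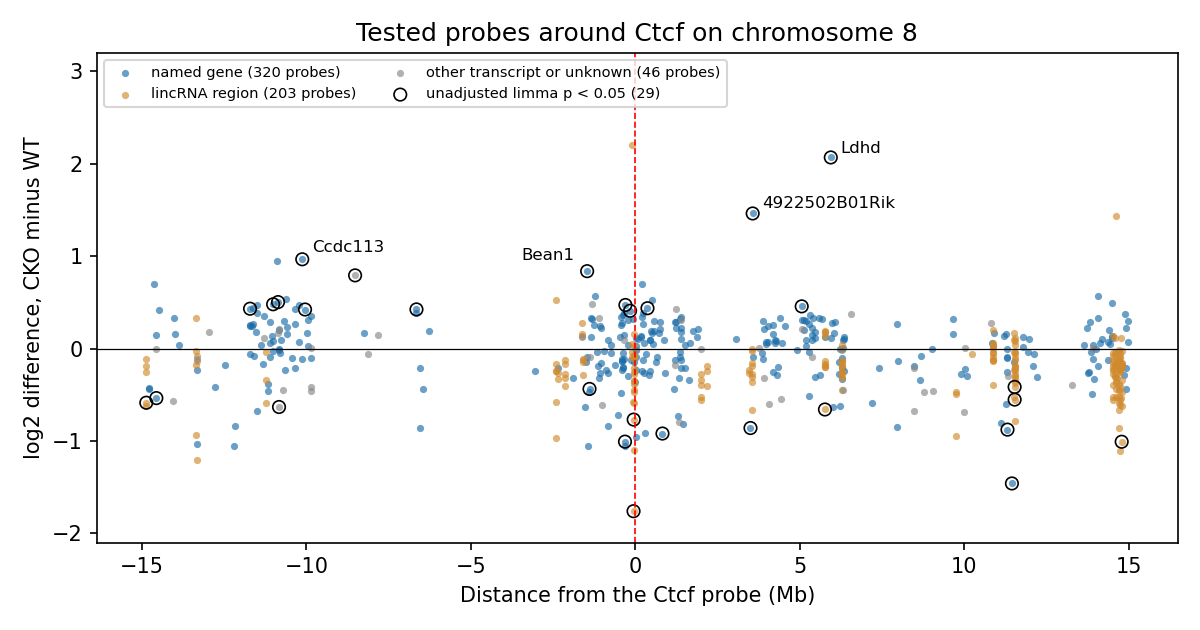
Each point is 1 of the 569 tested member probes, with its distance from the Ctcf probe in Mb on the x axis and its log2 difference, CKO minus WT, on the y axis; circles mark the 29 probes with an unadjusted limma p under 0.05. The circled probes lie on both sides of Ctcf, and above as well as below 0. From 10 to 15 Mb toward higher coordinates the 5 circled probes are all below 0.

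Distance from Ctcf was then read in bands on both sides. Within 1 Mb 7 of 98 tested members, 7.14%, had an unadjusted limma p under 0.05. From 1 to 5 Mb it was 4 of 122 (3.28%), from 5 to 10 Mb 5 of 105 (4.76%) and from 10 to 15 Mb 13 of 244 (5.33%), all beside 5.33% over the whole array. The median absolute difference was 0.22, 0.24, 0.21 and 0.22 in these bands, and 0.23 over all probes. Across the 569 tested members Spearman's correlation between absolute difference and absolute distance was 0.0049, a description across probes that share their arrays and are not independent replicates. The bands thus showed no ordered increase of the differences toward Ctcf. The share within 1 Mb moved with the mice, and the share over all probes in the same fits moved as well. Within 1 Mb it was 5.1% without WT 1, 2.04% without WT 2, 3.06% without WT 3 and 12.2% without WT 4. The shares over all probes were 3.01%, 3.38%, 2.92% and 12.3%. Without CKO 2 it was 15.3% within 1 Mb, against 8.66%. Without CKO 1, CKO 3 and CKO 4 it was 4.08% each, against 4.61%, 2.99% and 5.80%. With all mice and quantile normalization it was 9.18%, against 4.26%, and with normexp as well 5.1%, against 4.74%.

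Of the 30 steps of 1 Mb, 12 held at least 20 tested members, and 2 steps between -6 and -4 Mb held no member. Negative distances are toward lower coordinates. Among the 12, 7 had a share of unadjusted p under 0.05 above that of all probes. The largest was 4 of 25 (16.0%) between -11 and -10 Mb. The 3 higher probes there were Ciapin1, Ccdc113 and Gins3, and the left-out chemokine genes lie in the same step. The next was 4 of 40 (10.0%) between 11 and 12 Mb, where all 4 were lower in CKO, among them Pkd1l2. The steps next to Ctcf had 5 of 59 (8.47%) on the lower side and 2 of 39 (5.13%) on the higher side. On the far end, between 14 and 15 Mb, 1 of 84 (1.19%) was called, and most probes of that step belong to lincRNA regions.

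**Figure D2:**
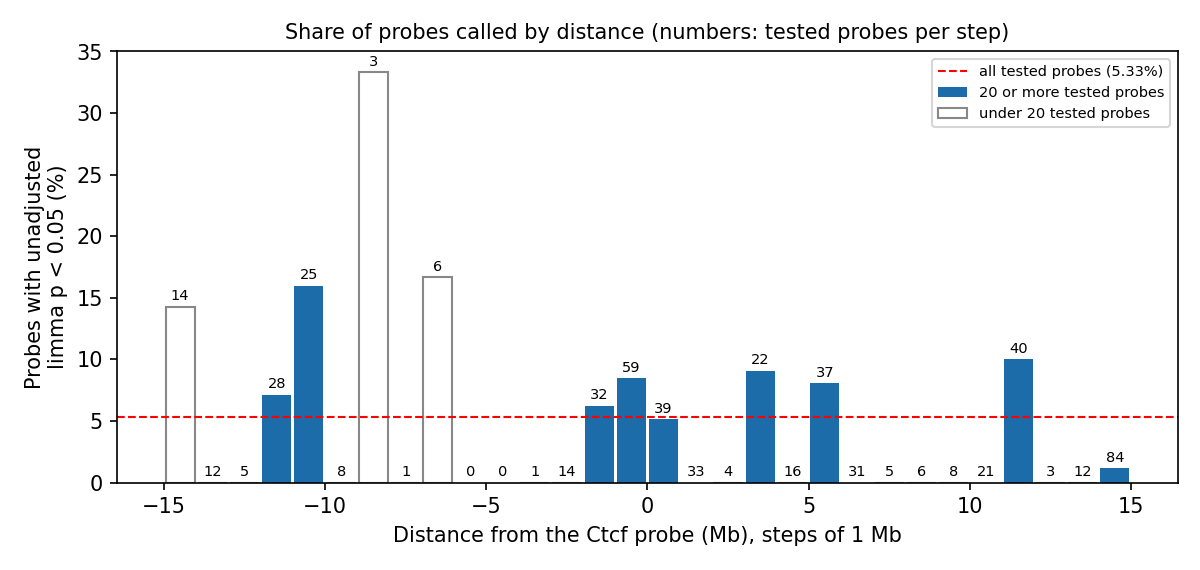
The y axis gives the percentage of tested members with an unadjusted limma p under 0.05 in each 1 Mb step of distance from the Ctcf probe (x axis, Mb), with the number of tested members above each bar; filled bars hold 20 or more, open bars fewer, and the dashed line is the share over all probes (5.33%). No ordered rise toward Ctcf is seen, and the tallest bar rests on 1 of 3 probes.

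4922502B01Rik, the member with the smallest p, is listed as a long noncoding RNA in RefSeq. Its first probe was at -1.16, -1.33, -1.31 and -0.89 in WT 1 to 4 and at 0.38, -0.085, 0.40 and 0.47 in CKO 1 to 4. Every CKO mouse was above every WT mouse, and the gap between groups exceeded the spread within either. The difference was 1.46 (SE 0.19), a 2.76-fold higher signal, with a limma adjusted p of 0.161. It was 1.46 within slide 2 and 1.33 within slide 3. After normexp correction and quantile normalization it was 1.29 with a limma adjusted p of 0.0461, the one alternative in which a member passed, and over all alternatives the adjusted p ran from 0.0461 to 0.933.

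The second probe, 65.4 kb away on the opposite strand, was at -3.04, -3.49, -3.29 and -4.00 in the WT mice and at -4.19, -3.43, -5.24 and -4.39 in the CKO mice. The groups overlapped through CKO 2. Its difference was -0.86 (SE 0.37, limma adjusted p = 0.738), on a dim probe that cleared the background in 4 WT mice and 3 CKO mice. After normexp correction and quantile normalization it was -0.12. The probes are assigned to the gene through different cloned transcripts in the scanner files, and the labels do not state whether the amplification kept the strand, so signal from the 2 strands cannot be told apart. Between them lie 9 other tested probes, all with a difference below 0, from -0.67 to -0.00070 with a median of -0.18. With the scaling used here the higher signal was thus seen with 1 of 11 tested probes in this interval. That count depends on the scaling. The lincRNA region at 3.56 Mb, which overlaps the interval, had 10 tested probes, and 10 were below 0 with a median of -0.25. With quantile normalization 7 of the 10 were below 0, with a median of -0.076. Differences below 0 were also common among lincRNA probes in general, since 22.0% of those tested over the array were above 0.

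Ccdc113, a coiled-coil protein of cilia, lies at 98082729 to 98082788, -10.1 Mb from the Ctcf probe. Its signal was -2.01, -1.90, -1.53 and -1.83 in WT 1 to 4 and -0.90, -0.80, -0.77 and -0.93 in CKO 1 to 4. The CKO mice lay close together and above all WT mice. The difference was 0.97 (SE 0.16, limma adjusted p = 0.510), with 0.86 within slide 2 and 0.98 within slide 3, and it kept its sign in all 23 alternatives. Since this gene was among those that first drew attention to the stretch, its difference is a description and not independent evidence for it.

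Of the other genes with an unadjusted limma p under 0.05, non-overlapping groups and a signal that cleared background in every mouse, 3 were higher in CKO. Arl2bp, a partner of the small GTPase ARL2, was at 2.15, 2.27, 2.31 and 2.43 in WT 1 to 4 and 2.76, 2.62, 2.96 and 2.74 in CKO 1 to 4. Its difference was 0.48 (SE 0.15, limma adjusted p = 0.738), but a second probe about 1 kb away gave 0.078 (SE 0.18), -0.0498 with quantile normalization, and overlapping groups. Bean1, a membrane protein that binds the ubiquitin ligase NEDD4, was at -1.80, -1.97, -1.76 and -1.61 in the WT mice and -1.11, -1.44, -0.17 and -1.06 in the CKO mice. CKO 3 stood above the other 3, and the difference was 0.84 (SE 0.27, limma adjusted p = 0.738). Plekhg4, a guanine nucleotide exchange factor, was dim, between -4.64 and -4.07 in WT and between -3.91 and -3.79 in CKO. Its difference was 0.47 (SE 0.17) with 75th percentile scaling and 0.90 with quantile normalization.

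Genes of this kind that were lower in CKO were Pkd1l2 and Rbl2. Pkd1l2, of the polycystin family, was at -3.45, -3.60, -2.97 and -3.19 in WT 1 to 4 and -4.16, -3.69, -4.08 and -4.79 in CKO 1 to 4. The groups were separated by a narrow gap, and the difference was -0.88 (SE 0.26, limma adjusted p = 0.738). It was -0.19 after normexp correction and quantile normalization. Rbl2, a pocket protein related to the retinoblastoma protein, was between -1.72 and -1.27 in WT and between -2.67 and -1.77 in CKO. Its difference was -0.54 (SE 0.23), with -0.11 within slide 2, -1.05 within slide 3 and -0.34 without CKO 3. No member was well above background on all arrays of one group and none of the other.

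**Figure D3:**
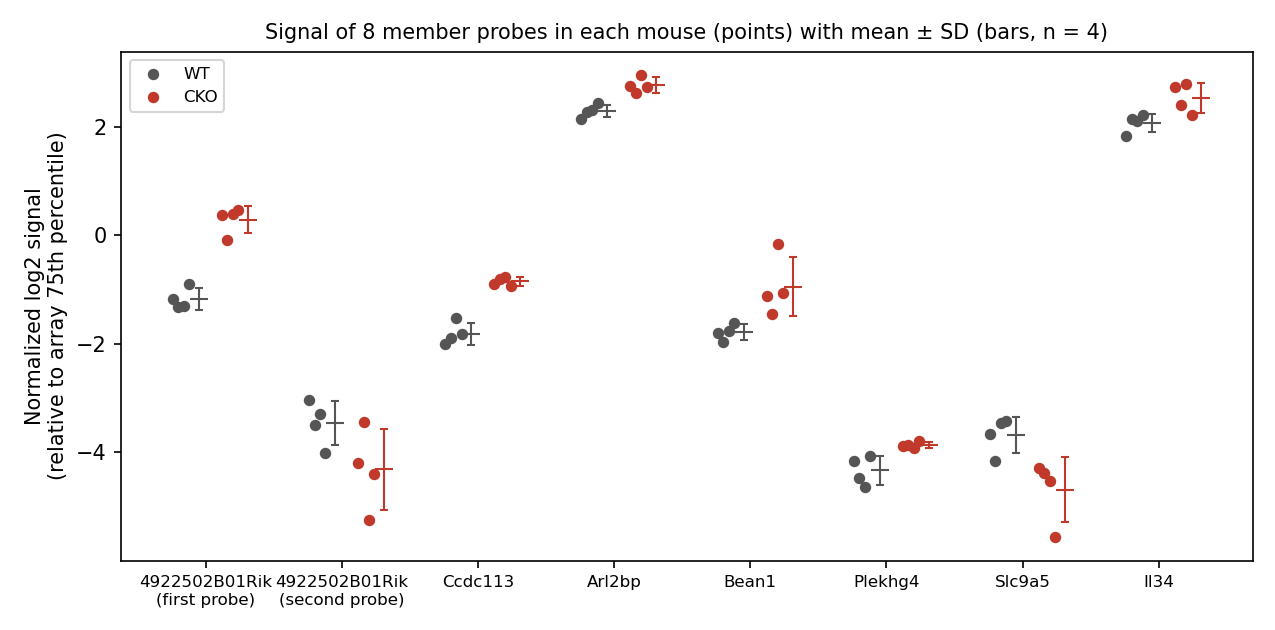
Normalized log2 signal (y axis, relative to the 75th percentile of each array) of 8 member probes in each WT (grey) and CKO (red) mouse, 1 point per mouse, with mean and SD as bars beside the points (n = 4 per group). The groups are separate for the first probe of 4922502B01Rik, Ccdc113, Arl2bp, Bean1, Plekhg4 and Slc9a5, and overlap for the second probe of 4922502B01Rik and for Il34.

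The members nearest to Ctcf were examined next. On the higher side lie Carmil2, a regulator of actin capping protein, and Acd, a telomere protein of the shelterin complex, both 15.4 to 15.6 kb from the Ctcf probe. Carmil2 was between 2.59 and 3.16 in WT and between 2.56 and 3.03 in CKO, with a difference of -0.087 (SE 0.19). A probe named ENSMUST00000062574, which overlaps that of Carmil2 and is described in the file as a predicted variant of the same gene, differed by -0.011 (SE 0.21). Acd was between -0.36 and 0.24 in WT and between -0.32 and 0.16 in CKO, with a difference of -0.020 (SE 0.19). On the lower side LOC102635661, at -21.9 kb, differed by -0.37 (SE 0.33) and the long noncoding Gm5914, at -45.6 kb, by -0.14 (SE 0.23). All of these groups overlapped. With median scaling Carmil2, ENSMUST00000062574, Acd and Gm5914 turned to 0.057, 0.13, 0.12 and 0.00167, so no direction is given for them.

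A pair of lincRNA regions that overlap each other lies between 108153471 and 108159672, at -53.0 to -47.0 kb from the Ctcf probe. Both regions lie inside the span listed for the Gm5914 probe, 108148323 to 108161022. They held 17 tested probes, 8 on the forward and 9 on the reverse strand, and some of the probes overlap each other. Of the 17, 15 had a difference below 0, with a median of -0.35 and a range from -1.76 to 0.16, and 2 had an unadjusted limma p under 0.05, beside 5.33% of all probes. The printed reverse-strand probe was at -4.26, -3.97, -3.95 and -4.18 in WT 1 to 4 and at -6.97, -3.91, -7.29 and -5.22 in CKO 1 to 4. CKO 2 was at the level of the WT mice and the other 3 were below. Its difference was -1.76 (SE 0.66, limma adjusted p = 0.738), and it was well above background on 2 CKO arrays. After normexp correction and quantile normalization it was -0.22. The printed forward-strand probe was between -3.29 and -2.31 in WT and between -4.05 and -2.80 in CKO, a difference of -0.77 (SE 0.31). A bright probe of the region, at chr8:108153978-108154037, was between 1.83 and 2.09 in WT and between 1.27 and 1.94 in CKO and differed by -0.39 (SE 0.18).

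A lincRNA region at -0.08 Mb had 1 tested probe, with a difference of -0.58. The region beyond it, at -0.10 Mb, had 4 tested probes with a median of 0.0045. One of them had the largest difference of all tested members, 2.21 (SE 1.04, limma adjusted p = 0.738), on a probe well above background in 1 WT mouse and 3 CKO mice, with overlapping groups.

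These values have to be read beside those of lincRNA probes in general. Over the array 22.0% of 12684 tested lincRNA probes had a difference above 0, and their median was -0.21. Over the 203 tested lincRNA members it was 13.8%, with a median of -0.21 as well. With quantile normalization the median of the 17 probes beside Ctcf was -0.12, against -0.10 for all lincRNA probes, and 13 of the 17 were below 0. Within slide 2 their median was -0.17 and within slide 3 it was -0.34. Other lincRNA regions of the stretch had like medians: -0.24 over 35 tested probes at 14.7 Mb, -0.20 over 24 at 11.53 Mb and -0.25 over 10 at 3.56 Mb. At 10.9 Mb it was -0.044 over 13 probes, whose median signal of 0.21 was the brightest among regions with 5 or more tested probes. Brighter regions with fewer probes went both ways. The median was -0.13 over 4 probes at -1.58 Mb (signal 1.08) and -0.17 over 2 at 14.58 Mb (signal 0.37). At -1.61 Mb it was 0.16 over 3 probes (signal 4.70).

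Differences of this kind moved with signal over the whole array. With all tested probes ordered by mean signal into 10 classes of like size, the median difference ran from -0.57 in the dimmest class to 0.16 in the brightest, and over the members in the same classes from -0.47 (45 probes) to 0.17 (53 probes). With quantile normalization the all-probe medians were -0.12 and 0.030 and those of the members 0.056 and 0.054. Spearman's correlation between difference and mean signal was 0.42 over the members and 0.50 over all probes, again across probes of the same arrays. The GC content of the 60-base probes had a Spearman correlation of -0.15 over the members and -0.066 over all probes. How far signal enters the difference of a single gene was not tested.

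**Figure D4:**
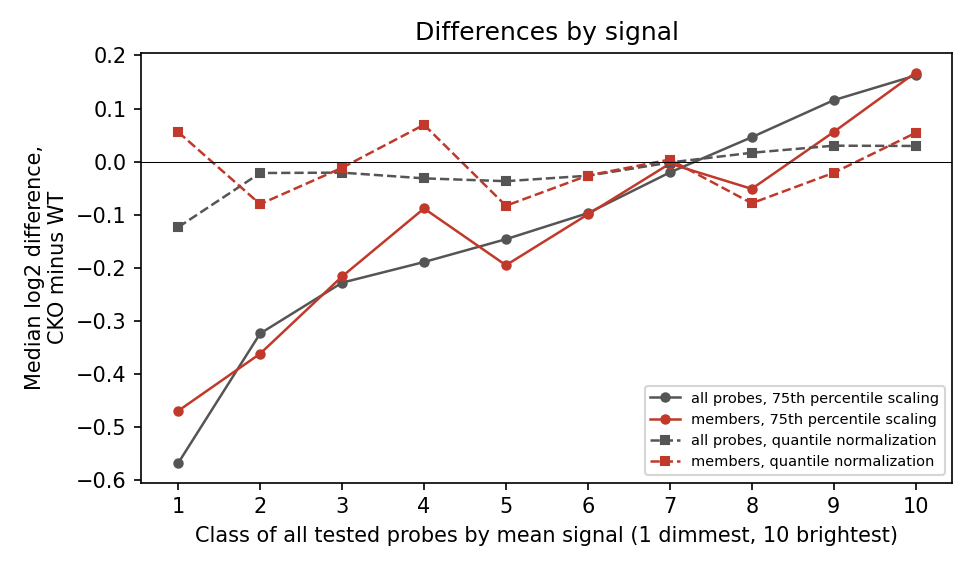
The x axis gives 10 classes of all tested probes by mean signal, 1 the dimmest, and the y axis the median log2 difference, CKO minus WT, for all probes (grey) and members (red) with 75th percentile scaling (solid) or quantile normalization (dashed). The solid lines rise together from -0.57 and -0.47 to 0.16 and 0.17, and the dashed lines stay within -0.12 to 0.069.

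By function, the neuronal signalling and transport genes of the stretch had 26 tested probes of 24 genes, of which 12 had a difference above 0, with a median of -0.069. At an unadjusted limma p under 0.05 there was 1 higher and 1 lower, beside 2.12% and 3.21% of all probes. Atp6v0d1, a subunit of the vesicular proton pump and -158 kb from the Ctcf probe, was between 3.41 and 3.90 in WT and between 3.89 and 4.21 in CKO, with a difference of 0.41 (SE 0.17). Slc9a5, a sodium and proton exchanger, was at -3.67, -4.16, -3.47 and -3.42 in WT 1 to 4 and at -4.29, -4.37, -4.52 and -5.57 in CKO 1 to 4. All CKO mice were below all WT mice, with a difference of -1.01 (SE 0.31, limma adjusted p = 0.738), and -0.26 after normexp correction and quantile normalization. Its neighbour Plekhg4, 12.9 kb away, differed in the other direction, and both probes were dim.

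Among immune and inflammation genes, which the study's title makes of interest, 17 probes of 14 genes were tested and 7 were above 0, with a median of -0.087. Il34, a neuronal ligand of the microglial receptor CSF1R, was at 1.84, 2.14, 2.11 and 2.21 in WT 1 to 4 and 2.73, 2.41, 2.78 and 2.21 in CKO 1 to 4. CKO 4 lay among the WT mice and the other 3 above them. The difference was 0.46 (SE 0.19, limma adjusted p = 0.738), with 0.44 within slide 2 and 0.28 within slide 3. Ciapin1, which takes part in the assembly of iron-sulfur proteins, was between 0.82 and 1.28 in WT and between 1.27 and 1.83 in CKO, a difference of 0.50 (SE 0.18). Both had an unadjusted limma p under 0.05, and they were named as the 2 genes of this list with the smallest p. Of the 17 probes 2 were thus called higher and 0 lower, beside 2.12% and 3.21% of all probes. The role given here for Ciapin1 is not an immune one, so Il34 alone of the 2 is described as an immune gene.

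Genes of vesicles, protein turnover and sorting were mostly on the higher side, with 22 of 27 tested probes above 0 and a median of 0.21, against -0.0099 over all tested probes of named genes. RNA processing and translation genes had 18 of 25 above 0 with a median of 0.21, and transcription and chromatin genes 20 of 28 with a median of 0.12. Beside these, 48.9% of all tested probes of named genes were above 0, and 54.1% of those among the members. Dus2, which modifies transfer RNA, differed by 0.44 (SE 0.19), the splicing factor Sf3b3 by 0.31 (SE 0.17) and Gins3, of the replicative helicase, by 0.42 (SE 0.18). These lists were bright, with median signals of 0.94, 0.35 and -0.30 against -1.01 over named genes. With quantile normalization their medians were 0.18, 0.18 and 0.12, against 0.043 over named genes. Within slide 3 they were -0.0079, 0.12 and 0.041. With slide as a block they were 0.19, 0.13 and 0.040, against -0.0026 over named genes.

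Mitochondrial and metabolic genes had 13 of 23 tested probes above 0 and a median of 0.070. Cox4i1, a subunit of cytochrome c oxidase, differed by 0.30 (SE 0.15). Ldhd, a D-lactate dehydrogenase, differed by 2.07 (SE 0.88) on a dim probe with WT 4 at -7.63 and the other WT mice between -4.24 and -3.16. The CKO mice were between -2.82 and -2.18, and the difference was 1.05 without WT 4 and 0.48 within slide 2. The 4 metallothionein probes had a median of 0.28. Mt2 differed by 0.47 (SE 0.30), with -0.22 within slide 3, while Mt1, also a metal-binding protein, differed by -0.67 (SE 0.30) by one probe and 0.38 by the other.

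The cadherins, adhesion molecules of the gene-poor blocks, had 8 tested probes of 6 genes, 4 above 0, with a median of -0.10. Cdh8, a synaptic cadherin -6.65 Mb from the Ctcf probe, differed by 0.42 (SE 0.19), 0.39 and -0.44 by its 3 probes. Cdh5, the cadherin of endothelium, differed by -0.63 (SE 0.46), by -0.20 without CKO 4 and by 0.069 after normexp correction and quantile normalization. The carboxylesterases, mostly liver enzymes, had 11 tested probes of 20 on the array, with a median signal of -3.53 and a median difference of -0.18. Ces5a differed by -1.05 (SE 0.73) and Ces4a by -0.72 (SE 0.39), and without CKO 3 by -0.25 and -0.43. The MARVEL-domain genes of the CMTM family had a median of -0.16 over 6 probes, with Cmtm2a at -0.44 (SE 0.19) and Cmtm4 at 0.32 (SE 0.17). The adhesion receptors Adgrg1 and Adgrg3 differed by 0.30 (SE 0.24) and -0.23 (SE 0.20). Matrix and cell surface genes had 3 of 10 tested probes above 0, and Dpep2, a dipeptidase, differed by -0.92 (SE 0.69), and by -0.18 without CKO 3. None of the 3 Iroquois homeobox genes on the array was bright enough to be tested.

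**Figure D5:**
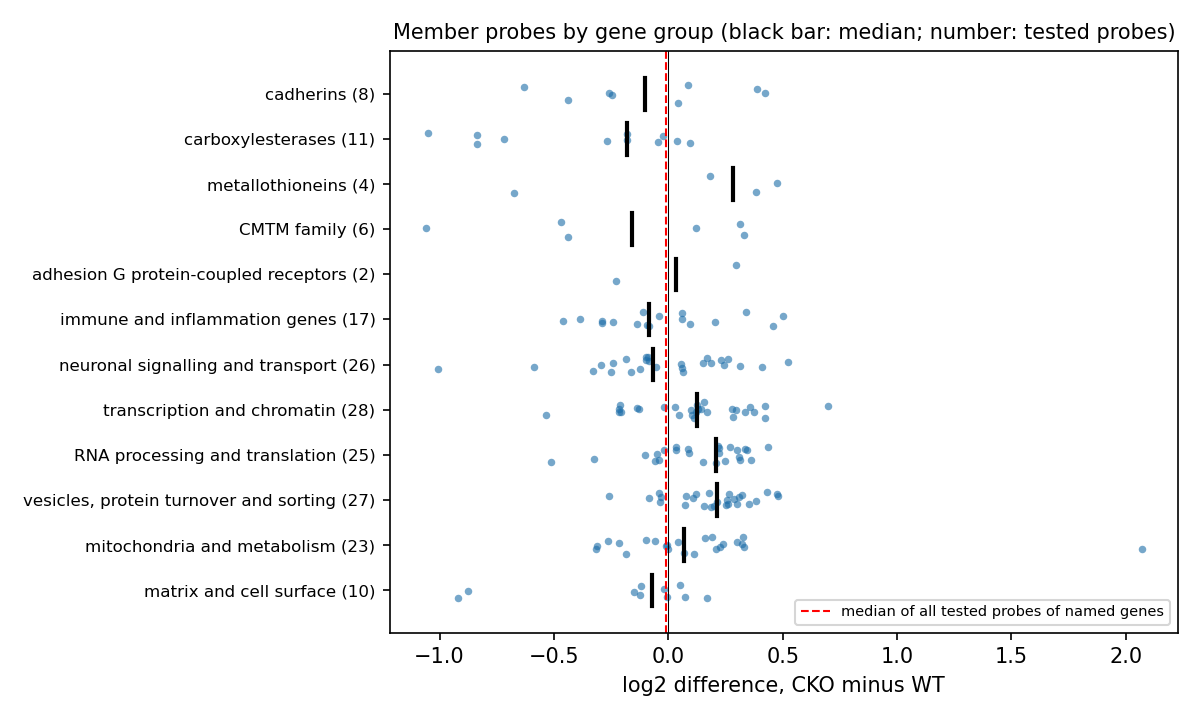
Each point is a tested member probe, with its log2 difference, CKO minus WT, on the x axis and its gene group on the y axis; vertical positions within a group are spread for visibility, black bars are group medians, and the dashed line is the median of all tested probes of named genes (-0.0099). Group medians run from -0.18 (carboxylesterases) to 0.28 (metallothioneins), and single probes spread widely around them.

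Probes of one gene gave a measure of how far a difference belongs to a gene and not to a probe. Of 44 named genes with 2 or more tested probes, 29 had the same sign with all of them, and the median range between a gene's probes was 0.25. The range was at least 1 for 4922502B01Rik and Mt1. In 1 gene, 4922502B01Rik, at least 2 probes had an unadjusted limma p under 0.05, and these differed in sign.

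Members next to the left-out genes were also read. Within 250 kb of Ccl17 there were 20 tested members with a median of 0.085, and 2 higher and 1 lower had an unadjusted limma p under 0.05. The share over all probes, 5.33%, is the background for this and the next counts, which rest on few probes. Within 250 kb of Pdf 0 of 23 had one, with a median of -0.041 and differences from -0.82 to 0.43. Within 250 kb of Psmb10 it was 1 of 26, with a median of 0.046. Within 250 kb of Zfhx3 there were 4 tested members, 1 with an unadjusted p under 0.05, the second probe of 4922502B01Rik. With the 7 left-out probes put back, of which 6 were bright enough to be tested, 34 of 575 had an unadjusted p under 0.05. This was beside 5.33% of all probes, and the groups did not overlap for 24, beside 3.28%. The larger counts come from the probes put back, those of Ccl17, Ctcf itself, Psmb10, Pdf and Zfhx3, and are a description alone.

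Because CTCF is a DNA-binding factor, the promoters of member genes in RefSeq (GRCm38.p6; 250 bases before to 50 after the start) were searched on both strands for the core letters of the CTCF motif. A promoter was found for 196 of the 304 named member genes, and 7 of these, 3.57%, held the letters, against 2.82% of 27025 genes with a promoter in the table. The 7 were Car7, Cngb1, Nae1, Nfat5, Terb1, Tmed6 and Tmem231. The match in Car7 and Nae1 is the same site, since both genes start from one shared stretch in opposite directions. Terb1 had no tested probe and Tmem231 had 2. Of the 7 tested probes of these genes 0 had an unadjusted limma p under 0.05, beside 5.33% of all probes. So few probes show nothing about genes with the letters. The 250 bases before the start are shown for the 2 genes whose match lies on the gene's own strand. These are Car7 (chr8:104534450-104534699) and Nfat5 (chr8:107293220-107293469), both genes of the forward strand of GRCm38.p6. Capitals mark the matched letters.
Car7: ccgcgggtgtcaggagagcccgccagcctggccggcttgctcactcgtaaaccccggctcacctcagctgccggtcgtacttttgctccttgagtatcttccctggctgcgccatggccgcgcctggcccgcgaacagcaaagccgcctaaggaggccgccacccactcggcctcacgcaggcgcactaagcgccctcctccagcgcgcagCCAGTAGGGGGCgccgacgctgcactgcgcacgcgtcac
Nfat5: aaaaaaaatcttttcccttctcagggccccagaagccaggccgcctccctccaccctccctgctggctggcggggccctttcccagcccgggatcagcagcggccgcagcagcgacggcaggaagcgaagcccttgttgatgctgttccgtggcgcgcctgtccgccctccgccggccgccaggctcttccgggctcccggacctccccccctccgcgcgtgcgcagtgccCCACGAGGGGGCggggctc

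Car7, a neuronal carbonic anhydrase, differed by -0.19 and Nfat5, a transcription factor of the osmotic stress response, by 0.058 by their tested probes with the smallest p. A match is a description of letters, and binding of CTCF at these sites was not measured here.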

How the data were processed

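RNA from anti-HA immunoprecipitates of 8 hippocampi was amplified, labelled with Cy5 and hybridised to 1-colour Agilent arrays, per the labels' protocols. Scanner files deposited by the authors hold, for each spot, an intensity from Agilent Feature Extraction (11.5 in the submitters' processing notes), with spatial and multiplicative detrending on and background correction off per the file headers, with probe coordinates of mm9. The deposited value table holds an intensity on a linear scale, and how it was normalized and centred no source used here states.

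Of 62976 spots 59305 were not controls, and none was saturated. Outlier spots were dropped, the spots of each probe were averaged as log2, and 18 of 55681 probes without an unflagged spot on some array were dropped. Log2 processed signal minus each array's 75th percentile was fitted per probe with limma 3.58.1 in R 4.3.3 (lmFit, eBayes, two-sided), over the 44316 probes that at least 4 arrays had well above background, with Benjamini-Hochberg adjustment over all of them and a threshold of 0.05. Within-slide values come from a fit of slide and genotype cells. Symbols came from accessions through RefSeq of GRCm38.p6, used for names alone (311 member probes), with names of the files for the rest.

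On simulated data for CKO against WT over 44316 probes, 24 of 100 probes changed by 1 and 73 of 100 changed by 2 were recovered, with 7 false calls. Members and gene lists were chosen with earlier results of these data known. Named were members past the threshold. In each direction up to 12 genes were named with an unadjusted p under 0.05, groups that do not overlap and signal above background on all arrays, and up to 3 seen in 1 group alone. From each of 13 lists came the 2 with the smallest p, and on each side of Ctcf the 3 nearest. Other members named were chosen after their values were seen. Mice are labelled as biological replicates, and the number of arrays limits the precision.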

Additional observations from a re-analysis of the deposited data

Results flagged for a closer look

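In 3 of the 74 groups of 4 mice examined for the named probes, 1 mouse lay far from the other 3 by Dixon's criterion, which flags about 1 group in 20 by chance. Gins3 was at 1.53 in WT 4, with the other WT mice at 1.04. Dus2 was at 0.79 in WT 4, with the other WT mice between 0.31 and 0.37. Carmil2 was at 2.56 in CKO 4, with the other CKO mice between 2.96 and 3.03.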

How the results depend on the processing

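Of 37 named probes, 29 kept the direction of their difference in every alternative run, up to 23 each. The alternatives reuse the same arrays, and many of these probes were named for a small p or separate groups on them. A kept direction is therefore a description and not independent support. The first probe of 4922502B01Rik, 1.29 with normexp and quantile normalization, passed the adjusted threshold there, which made 1 member past it. In every other alternative 0 members passed in limma. The count of 29 members with an unadjusted p under 0.05 became 8 within slide 2 (2.75% of all probes) and 75 with array weights (14.0%), and ran from 15 to 68 over the fits that leave out 1 mouse. The count of 19 members with groups that do not overlap became 56 in males alone (9.68% of all probes) and ran from 23 without WT 3 (4.36% of all probes) to 110 without WT 4 (17.3%), fewer mice making such separation easier by construction. The share called within 1 Mb, 7.14%, became 1.02% within slide 2 (2.75% of all probes), 11.2% in males alone (4.27%) and 16.3% with array weights (14.0%). It was 9.18% with quantile normalization (4.26% of all probes) and 9.18% with sex as a covariate (6.23%). With normexp and quantile normalization it was 5.1% (4.74%), and in the deposited values 6.19% (4.48%). Without 1 mouse it ran from 2.04% without WT 2 (3.38% of all probes) to 15.3% without CKO 2 (8.66%).

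For 8 named probes the direction turned in some alternative, and the cause was not tested. Mt2 was at -0.22 within slide 3. The second Arl2bp probe was at -0.0498 with quantile normalization, -0.0285 with normexp, -0.0676 in the deposited values, -0.36 within slide 3 and -0.0497 with quantile normalization and slide as a block, an alternative chosen after seeing the data. Without 1 mouse it ran from -0.00589 to 0.19. Cdh5 was at 0.069 with normexp. Gm5914 was at 0.00167 with median scaling, 0.0327 with quantile normalization, 0.0118 with normexp and 0.0825 in the deposited values. LOC102635661 was at 0.0614 within slide 3. With median scaling Carmil2 was at 0.057, ENSMUST00000062574 at 0.13 and Acd at 0.12. In males alone ENSMUST00000062574 was at 0.094, and in the deposited values Acd was at 0.00537. Without 1 mouse Carmil2 ran from -0.21 to 0.0218, ENSMUST00000062574 from -0.17 to 0.0849 and Acd from -0.13 to 0.11.

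The replicate numbers of the titles did not pair the mice: deviations of same-numbered mice correlated at -0.31, 0.34, -0.39 and 0.036. With the replicate block 20 members had an unadjusted p under 0.05 and within 1 Mb the share was 5.1%, beside 3.71% of all probes, and 0 passed the adjusted threshold. Dim probes limit the precision, since 506 of the 569 tested members were well above background on all arrays and the rest were not.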
